A study of Drosophila melanogaster with 6 samples.

Results

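Members of the RNA interference and microRNA machinery of Drosophila melanogaster, 10 of the 14012 genes that the table lists, were followed in RNA-seq of S2 cells. The members were chosen by their CG numbers: Dcr-2 (CG6493), r2d2 (CG7138), AGO2 (CG7439), drosha (CG8730), pasha (CG1800), Dcr-1 (CG4792), loqs (CG6866), AGO1 (CG6671), vig (CG4170) and Tudor-SN (CG7008). They were chosen by function, and the rule used no measured value, although earlier results of these data were known. The table holds FPKM, the number of sequenced fragments scaled to transcript length and to all mapped fragments of a library, for each annotated transcript, and the 18 transcript rows of the 10 genes were summed per gene. All 10 genes had a mean of at least 1 FPKM over the libraries and were among the 7308 genes tested.

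S2 is a hemocyte-like line from late embryos, and all 6 libraries were of total RNA from S2-DRSC cells of 1 line, in 3 groups of 2 libraries. The controls were non-treated cells. The PARP1 KD cells were given double-stranded RNA (dsRNA) against PARP1, the nuclear enzyme that adds poly(ADP-ribose) to proteins, with amounts of 100 and 500 that the labels give in ng in the titles and in µg in the treatment field. The PJ34 cells were given a small-molecule inhibitor of this PARylation at 10 and 0.3 µM and no dsRNA. The table does not say which column holds which dose, so the libraries of a treatment carry the numbers of its columns and the doses were treated as replicates, as in the study. The study names a non-targeting LacZ dsRNA as knockdown control, but describes the sequenced controls as non-treated. If so, an effect of dsRNA itself and an effect of less PARP1 cannot be told apart in these libraries.

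In flies, long dsRNA is cut by Dicer-2 into short interfering RNAs (siRNAs), which Dicer-2 and its partner R2D2 load into Argonaute-2 to cleave matching RNA. MicroRNAs (miRNAs) take a parallel route: Drosha and Pasha cut the primary transcript in the nucleus, Dicer-1 with Loquacious cuts the hairpin in the cytoplasm, and Argonaute-1 carries the miRNA to its targets. S2 cells take up dsRNA from the medium and have an active siRNA route, so dsRNA given to knock down a gene passes through the products of the first 3 genes of this set.

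The 6 libraries were not alike, and they differed most in long transcripts. Of the members, Dcr-2, AGO2, drosha, Dcr-1 and AGO1 had a median transcript length over 4000 bases. Low values came in steps from which 22600000 to 28300000 mapped fragments per library were estimated, so depth was similar, but the median FPKM of the genes with transcripts over 4000 bases ran from 13.5 in control library 1 and 6.29 in control library 2 through 5.94 and 4.81 in the PARP1 KD libraries to 6.13 and 0.986 in PJ34 libraries 1 and 2. For genes under 1000 bases it lay between 34.5 and 44.1 in all libraries. The values were therefore also tested after a correction for this length trend. Of 8 hemocyte markers 5 had a mean of at least 1 FPKM, with sums of 190 to 367 FPKM in controls, 193 to 265 in PARP1 KD and 104 to 197 in PJ34 libraries, while Hml was at most 1.55 FPKM and the crystal cell factor lz at most 0.0757. Markers of other cell types were low: germ cell markers (vas and bam) summed to at most 0.318 FPKM, fat body markers to 0.0213, ovarian somatic markers to 7.16 (all fs(1)Yb, with tj at 0), neuron markers to 3.83 and muscle markers to 5.98. The neuron gene elav was at 3.79 and 0.897 FPKM in the controls, 0.326 and 0.470 in PARP1 KD and 3.37 and 1.07 in PJ34, and the muscle markers summed to 3.45 to 5.98 in controls, 3.08 to 3.77 in PARP1 KD and 0.395 to 0.688 in PJ34. Their part in the results was not tested. The targeted gene Parp1 was at 51.6 and 29.9 FPKM in the controls, 16.7 and 10.2 in PARP1 KD and 39.3 and 50.2 in PJ34. Its 2 knockdown values lay below the other 4, with a log2 difference from control of -1.51 (SE 0.55) that did not pass (unadjusted p = 0.0194, limma adjusted p = 0.9996). The study itself reports a significant but smaller loss of PARP1 expression in these RNA-seq data by its own analysis. It also measured the knockdown by quantitative PCR and, for the protein, by western blot.

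No gene of the set was past the threshold after dsRNA treatment. All tests were made on log2(FPKM + 1) with limma over the 7308 genes, and the threshold was an adjusted p under 0.05. The SE and p of each comparison rest on a spread pooled over all 3 groups. That of PARP1 KD against control thus includes the spread between the PJ34 libraries. Against control, 0 of 10 members passed, beside 0% of all genes tested, and with an unadjusted p up to 0.05 the counts were 0 members beside 2.86% of all genes. Against PJ34, 0 members passed, beside 2.57%, and 1 did at an unadjusted p, beside 23.7%. When only the 4 libraries of PARP1 KD and control were used, 3 members reached an unadjusted p up to 0.05, beside 950 of 7308 genes. In that setting 0 members passed the threshold, with a smallest limma adjusted p of 0.16, beside 23 genes. All 10 differences from control were below 0, with a median of -0.56 for the members and -0.28 for all genes tested. The members' median was -0.24 without control library 1, -1.14 without control library 2 and -0.32 without KD library 2. On the FPKM + 1 scale, the upper ends of the 95% confidence intervals were between 1.36 times the control level for vig and 2.31 times for Dcr-1, and larger rises lay outside them. The lower ends were between 0.346 times the control level for r2d2 and 0.0856 times for AGO1. In bulk RNA, less RNA per cell and fewer cells that express a gene cannot be told apart.

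**Figure D1:**
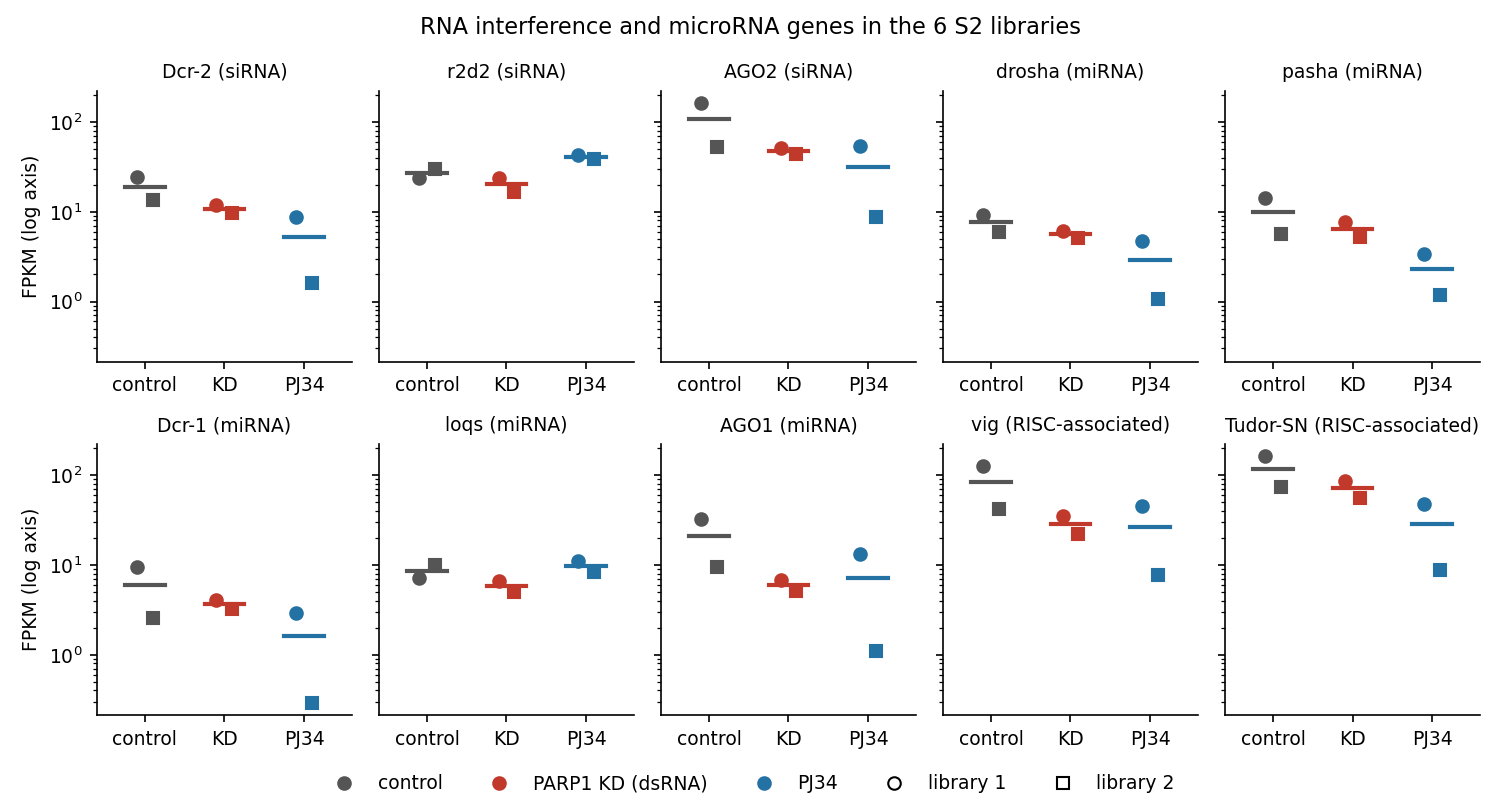
FPKM (log axis) of the 10 genes in each library, with circles for library 1, squares for library 2 and a bar at the group mean. Only for loqs do both PARP1 KD points (6.66 and 5.06 FPKM) lie below the 4 others, and PJ34 library 2 is the lowest library for 8 of the 10 genes, down to 0.291 FPKM for Dcr-1.

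Dcr-2 (chromosome arm 2R, 13462483 to 13469011 in the dm3 build, with 1 transcript row in the table) encodes the Dicer that cuts long dsRNA. It was at 24.1 and 13.5 FPKM in the controls, 11.8 and 9.67 in PARP1 KD and 8.84 and 1.60 in PJ34. The knockdown values sat under the controls and over the PJ34 values, with no overlap. The log2 difference from control was -0.71 (SE 0.77, limma adjusted p = 0.9996) and after the length correction -0.03 (SE 0.21, limma adjusted p = 0.98), with an interval from -0.54 to 0.49. The span of Dcr-2 overlaps that of Rab4, and the counting of shared reads between overlapping genes was not given in the sources used here.

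R2D2 is the dsRNA-binding partner of Dicer-2 that senses which siRNA strand is loaded. Its gene r2d2 (2L, 7800188 to 7802008) was at 23.8 and 29.8 FPKM in the controls, 24.03 and 16.7 in PARP1 KD and 42.7 and 38.7 in PJ34. The knockdown values overlapped the controls, and the PJ34 libraries were the highest of all 6. With 1356 bases, r2d2 has the shortest median transcript length of the set, and its replicates differed by no more than 1.44-fold in any group. The log2 difference between PARP1 KD and control was -0.39 (SE 0.51, limma adjusted p = 0.9996).

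AGO2, which encodes the Argonaute that slices targets of siRNAs, was among the most abundant genes of the set. AGO2 (3L, 15547216 to 15554146) was at 163 and 52.7 FPKM in the controls, 51.4 and 43.4 in PARP1 KD and 54.0 and 8.75 in PJ34. The knockdown libraries lay below both controls, but KD library 1 differed from control library 2 by far less than the controls from each other, which stood 3.10-fold apart. The log2 difference of -0.96 (SE 0.80, limma adjusted p = 0.9996) became -0.34 after the length correction and -0.15 without control library 1. AGO2 overlaps CG7739 in the table.

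In the miRNA route, drosha (2R, 3819930 to 3824360), the nuclear RNase III gene, was at 9.26 and 5.995 FPKM in the controls, 6.12 and 5.09 in PARP1 KD and 4.78 and 1.06 in PJ34. Its cofactor gene pasha (3R, 27443698 to 27447197), whose product binds the primary hairpin, was at 14.3 and 5.61, 7.77 and 5.22, and 3.38 and 1.19 FPKM in the same order. For both genes the knockdown libraries overlapped the controls and lay above the PJ34 libraries. The log2 differences from control were -0.36 (SE 0.68) for drosha and -0.45 (SE 0.70) for pasha, each with a limma adjusted p of 0.9996. After the length correction they were 0.27 and 0.02.

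Dcr-1, the gene of the Dicer that cuts miRNA hairpins, has the longest median transcript length of the set, 6913 bases, and the lowest mean level over the 6 libraries. Dcr-1 (3R, 18559726 to 18566752) was at 9.41 and 2.55 FPKM in the controls, 4.10 and 3.20 in PARP1 KD and 2.95 and 0.291 in PJ34, the last resting on about 47 fragments. The knockdown values fell between the controls. The log2 difference was -0.39 (SE 0.72, limma adjusted p = 0.9996), 0.30 (SE 0.27) after the length correction and 0.38 without control library 1.

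Loquacious is a dsRNA-binding protein that partners Dicer-1, and an isoform of it also works with Dicer-2. The gene loqs (2L, 13382647 to 13385674) was at 7.19 and 10.00 FPKM in the controls, 6.66 and 5.06 in PARP1 KD and 11.0 and 8.39 in PJ34. It was the 1 member with both knockdown libraries below all 4 others, beside 6.77% of all genes tested, and 0 members lay above all 4, beside 7.1%. KD library 1 was only just below control library 1. The log2 difference from control was -0.48 (SE 0.63, limma adjusted p = 0.9996), and loqs no longer lay below all 4 under quantile normalization, median centring or the length correction. Instead drosha lay above all 4 under quantile normalization, beside 14.6% of all genes, and Dcr-1 under the length correction, beside 15.9%.

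AGO1 encodes the Argonaute of most miRNAs and had the largest difference of the set between PARP1 KD and control as deposited, though not after the length correction. AGO1 (2R, 9834046 to 9845594) was at 32.4 and 9.60 FPKM in the controls, 6.75 and 5.12 in PARP1 KD and 13.1 and 1.10 in PJ34. The knockdown libraries lay below both controls and inside the PJ34 range. The log2 difference from control was -1.45 (SE 0.94, limma adjusted p = 0.9996), -0.76 (SE 0.40, limma adjusted p = 0.71) after the length correction and -0.62 without control library 1. AGO1 overlaps CG33155 and mRpL53, and its span is the longest here, so its value depends on how reads were assigned among transcripts and neighbours.

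The 2 remaining genes encode proteins found with the RNA-induced silencing complex (RISC) of fly cells. The RNA-binding protein gene vig (2L, 15064197 to 15070316) was at 128 and 41.7 FPKM in the controls, 35.5 and 22.1 in PARP1 KD and 44.9 and 7.70 in PJ34. Tudor-SN (3L, 259285 to 264378), which encodes a protein with staphylococcal nuclease-like and Tudor domains, was at 162 and 74.8, 86.9 and 56.4, and 48.2 and 8.80 FPKM. The knockdown libraries lay below both controls for vig, and between or below them for Tudor-SN. The vig difference was -1.35 on the log2 scale (SE 0.81, limma adjusted p = 0.9996), -0.89 (SE 0.43, limma adjusted p = 0.70) after the length correction and -0.55 without control library 1. The Tudor-SN difference was -0.65 (SE 0.73) and became -0.09 after the correction, -0.094 with control library 1 left out and -1.20 with control library 2 left out. The table places vig within the span of vas, a germ cell gene listed at no more than 0.149 FPKM in any library.

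Counted over the set, 5 members had both knockdown libraries below both controls, beside 34.9% of all genes tested, and these were Dcr-2, AGO2, loqs, AGO1 and vig. No member had both above (0 of 10, beside 10.5%). Without control library 1, 8 differences stayed below 0 and 2 were above, and they ran from -0.69 for loqs to 0.38 for Dcr-1. After the length correction 7 members were below 0 and 3 above, with a median of -0.11 beside 0.02 for all genes. No member passed the threshold against control in any of the alternatives. Few genes passed at all: 0 with the other pseudocounts, filters and scalings or without the trend. With only the 4 libraries of the comparison, 23 of 7308 genes passed.

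**Figure D2:**
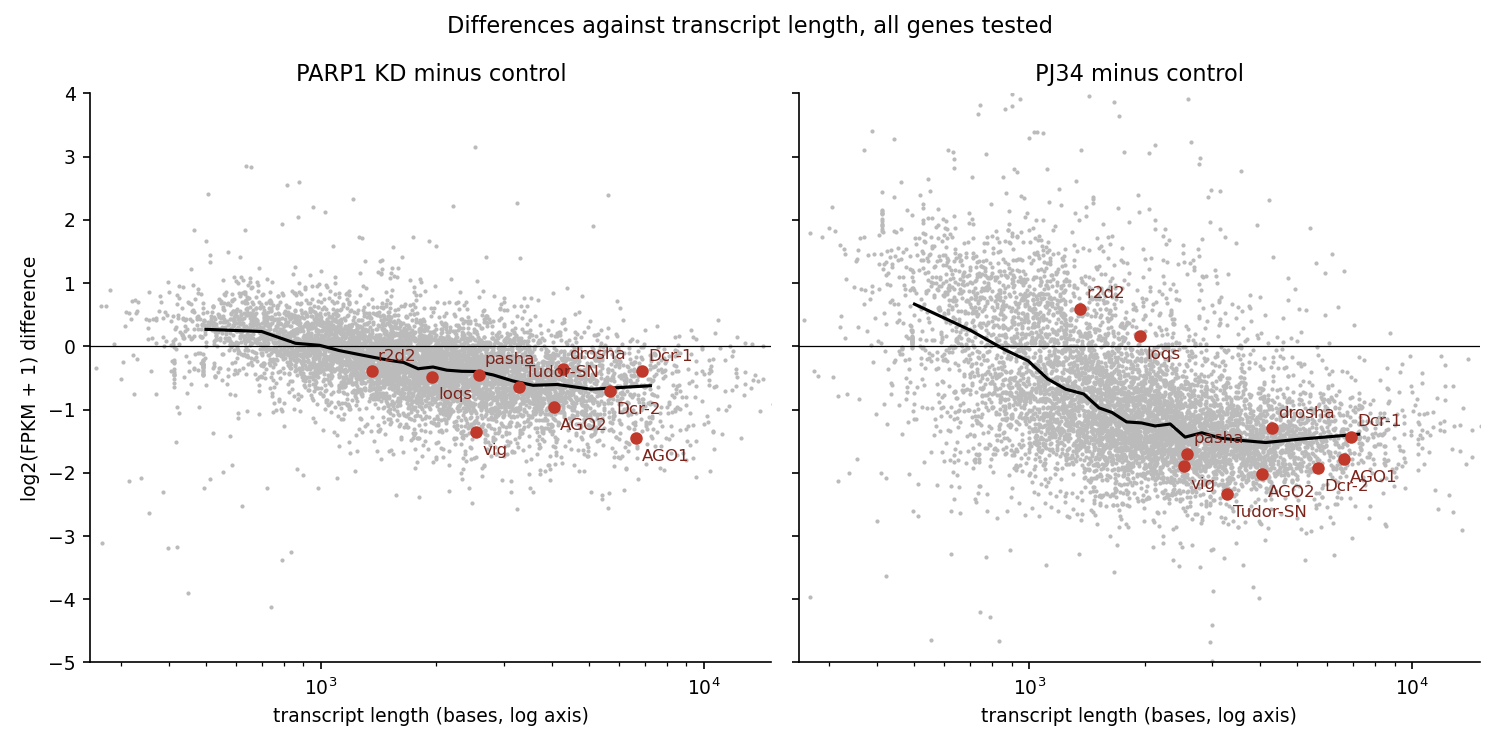
Log2(FPKM + 1) difference of the genes tested with a known length (grey, those beyond the axes not drawn) against transcript length in bases (log axis), for PARP1 KD and for PJ34 against control, with the 10 members in red and the median in bins of length in black. Under PARP1 KD most members lie along the median of genes of their length, and vig and AGO1 lie below it (-1.35 and -1.45). Under PJ34 r2d2 and loqs lie above it (0.59 and 0.16), and Tudor-SN, AGO2 and vig lie below it (-2.34, -2.02 and -1.89).

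The PJ34 cells, which got no dsRNA, give a second reference. PARP1 KD lay above both PJ34 libraries for 5 members (Dcr-2, drosha, pasha, Dcr-1 and Tudor-SN), beside 43.8% of all genes tested, and below both for r2d2 and loqs, 2 members beside 17.3%. The log2 difference was largest for Tudor-SN, at 1.69 (SE 0.73, limma adjusted p = 0.197, unadjusted p = 0.0423). Tudor-SN was the only member past an unadjusted p of 0.05. The median over members was 0.98 and over all genes 0.67. PJ34 library 2 was the lowest library for every member but r2d2 and loqs, and without PJ34 library 1 the comparison with that library alone called 8 members, beside 4222 of all 7308 genes. Without PJ34 library 2, in turn, 0 members were called and the median was 0.00041. Comparisons with control and with PJ34 share the PARP1 KD libraries, so they are not independent of each other.

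r2d2 and loqs stood apart from the other 8 members in this comparison. The log2 difference of r2d2 between PARP1 KD and PJ34 was -0.99 (SE 0.51, 95% interval -2.13 to 0.15, limma adjusted p = 0.254), and that of loqs was -0.64 (SE 0.63, 95% interval -2.05 to 0.77, limma adjusted p = 0.506). After the length correction r2d2 was past the threshold, at -1.52 (SE 0.31, limma adjusted p = 0.029), and loqs was not, at -1.42 (SE 0.41, limma adjusted p = 0.0561). The r2d2 call thus holds only with that correction. In that setting 1370 of 7248 genes passed.

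Against control, PJ34 itself called 0 of the 10 members, beside 0.643% of all genes tested, and at an unadjusted p of at most 0.05 it reached 5 members, beside 31.1%. The 5 were Dcr-2, AGO2, pasha, vig and Tudor-SN, with log2 differences from -1.70 to -2.34 and limma adjusted p from 0.124 to 0.158. After the length correction Tudor-SN was at -0.92 (SE 0.31, limma adjusted p = 0.126), and the others of the 5 lay between -0.38 and -0.58. Both PJ34 libraries lay below both controls for Dcr-2, drosha, pasha and Tudor-SN, 4 members beside 54.1% of all genes, and above both for r2d2 alone, 1 member beside 13.1%. The r2d2 difference was 0.59 (SE 0.51, limma adjusted p = 0.356) as deposited and 1.29 (SE 0.31, limma adjusted p = 0.0732) after the length correction, and that of loqs was 0.16 (SE 0.63) and 1.30 (SE 0.41, limma adjusted p = 0.113). The study lists r2d2 among the genes higher under PARylation inhibition, by Cuffdiff at a p of at most 0.05. The members' median difference was -1.74 and the median of all genes -1.08.

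**Figure D3:**
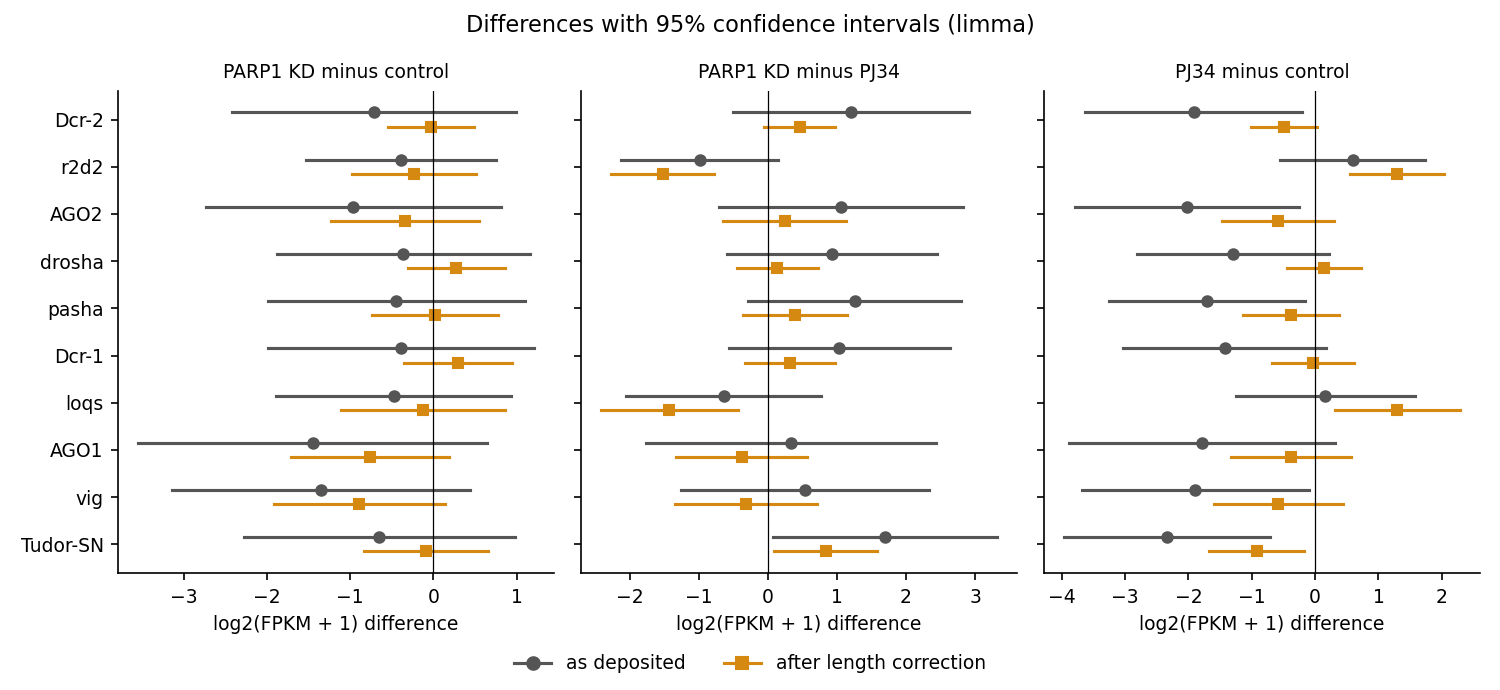
Log2(FPKM + 1) differences with 95% confidence intervals from limma for the 10 genes in the 3 comparisons, as deposited (grey circles) and after the length correction (orange squares). For PARP1 KD against control every interval spans 0, and r2d2 against PJ34 moves from -0.99 to -1.52 with the correction.

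Replicates were closest in the PARP1 KD group. The fold between the 2 libraries of a group ran from 1.18 to 1.61 over the members in PARP1 KD, with a median of 1.32. In the controls it ran from 1.25 to 3.69 with a median of 2.35, and 6 members differed by at least 2-fold. In PJ34 it ran from 1.10 to 12.0 with a median of 5.50, and 8 members differed by at least 2-fold. Among all genes with values in both libraries, 78 of 7293 differed by at least 2-fold between the PARP1 KD libraries, 2211 of 7291 between the controls and 4654 of 7282 between the PJ34 libraries. The members thus followed the same order of groups as all genes.

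A ratio of 2 genes within a library removes any factor shared by the library. The ratios compared each siRNA gene with its miRNA counterpart, and they were taken on FPKM. The ratio of AGO2 to AGO1 was 5.04 and 5.49 in the controls, 7.60 and 8.48 in PARP1 KD and 4.11 and 7.99 in PJ34. The knockdown values lay above both controls and overlapped PJ34. The ratio of Dcr-2 to Dcr-1 was 2.57 and 5.31 in the controls, 2.87 and 3.02 in PARP1 KD and 2.99 and 5.49 in PJ34, so the knockdown fell between the controls. The ratio of r2d2 to loqs was 3.31 and 2.98 in the controls, 3.61 and 3.30 in PARP1 KD and 3.88 and 4.61 in PJ34, with overlap of knockdown and control and the highest values in PJ34. With 2 libraries against 2, an exact permutation test cannot go below a two-sided p of 0.333, so the ratios are given without a test. The genes of a pair differ in transcript length, by 2583 bases for AGO2 and AGO1, so a ratio does not remove the length trend.

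**Figure D4:**
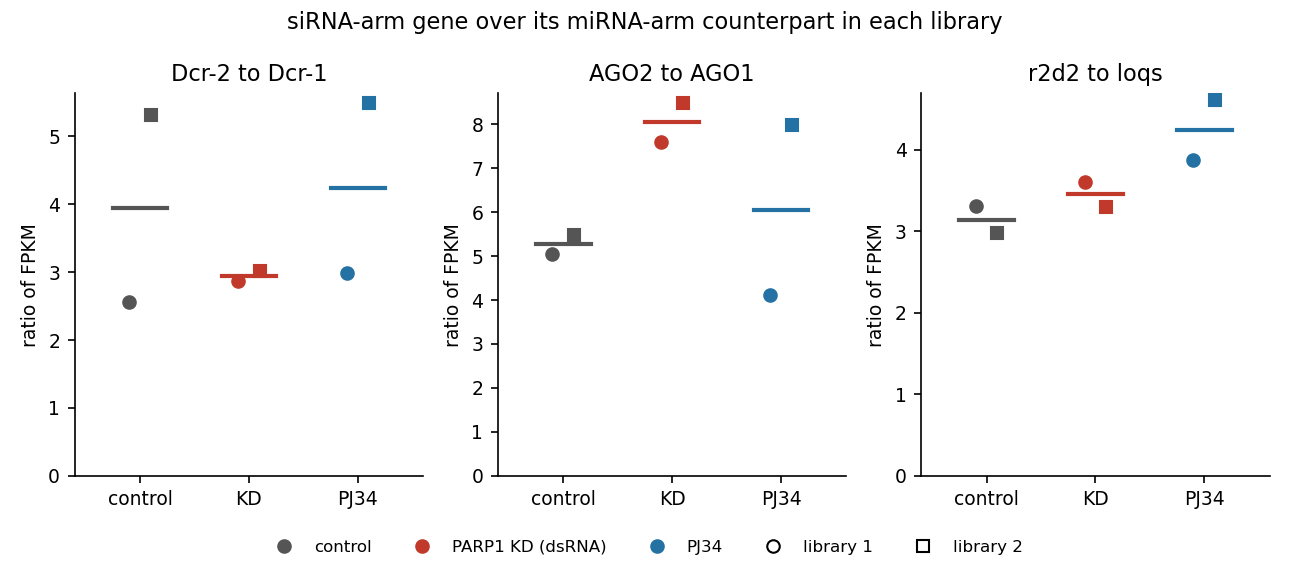
Ratio of FPKM of each siRNA gene to its miRNA counterpart in each library, from 0, with circles for library 1, squares for library 2 and a bar at the group mean. For AGO2 to AGO1 both PARP1 KD points (7.60 and 8.48) lie above both controls (5.04 and 5.49), and for the other pairs the knockdown and control points overlap.

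Of the 10 genes, 6 had 1 transcript row and 4 had several, whose shares are the estimates of Cufflinks. The share of AGO1 carried by AGO1-RA, the shortest transcript at 3481 bases, was 10.8% and 76.3% in the controls, 85.5% and 90.4% in PARP1 KD and 19.7% and 28.4% in PJ34. Control library 2 was close to the knockdown libraries and control library 1 to the PJ34 libraries. The samples are also listed in this order, with control library 1 before the PJ34 libraries and control library 2 before the PARP1 KD libraries. Any part of this order in the split was not tested. In FPKM, AGO1-RA itself was at 3.495 and 7.32 in the controls, 5.77 and 4.63 in PARP1 KD and 2.59 and 0.312 in PJ34, with overlap of knockdown and control. The other AGO1 transcripts, RB and RC together, were at 28.9 and 2.28 FPKM in the controls, 0.981 and 0.492 in PARP1 KD and 10.6 and 0.784 in PJ34. Against control library 1, the low AGO1 sum of the knockdown libraries thus lay in the longer transcripts, which were also low in control library 2 and in PJ34 library 2. Against control library 2, AGO1-RA and the longer transcripts were both lower in the knockdown libraries.

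The libraries split in the same way for vig. The share of vig-RA was 87.7% and 57.6% in the controls, 49.6% and 39.5% in PARP1 KD and 77.0% and 76.5% in PJ34. The share of vig-RB was 9.23% and 42.4%, 50.4% and 50.2%, and 13.4% and 16.1% in the same order. The level of vig-RB in FPKM, at 11.8 and 17.7 in the controls and 17.9 and 11.1 in PARP1 KD, overlapped between these groups, whereas vig-RA was at 112 and 24.01 and at 17.7 and 8.73. Of the 8 hemocyte markers, Pxn, which encodes peroxidasin, split the libraries in this way and was picked after its values were seen: it was at 4.09 and 102 FPKM in the controls, 94.7 and 75.2 in PARP1 KD and 4.97 and 0.610 in PJ34. Other hemocyte markers did not follow it, such as srp at 71.7 and 45.2, 49.4 and 43.8, and 26.5 and 4.37 FPKM in the same order, crq at 110 and 133, 64.2 and 44.7, and 104 and 37.1, Sr-CI at 0.938 and 2.50, 1.58 and 1.71, and 33.9 and 15.0, and He at 1.47 and 80.5, 52.3 and 26.0, and 27.0 and 47.0. Their part in the shares of AGO1 and vig was not tested.

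For loqs the share of loqs-RA was 16.0% and 39.2% in the controls, 49.4% and 37.6% in PARP1 KD and 44.1% and 63.0% in PJ34, and that of loqs-RB was 74.1% and 44.6%, 34.2% and 36.4%, and 34.0% and 25.7%. Control library 1 stood apart in loqs, and the knockdown shares of RA overlapped the others. AGO2 was carried by AGO2-RB in every library, at 86.2% to 98.7%.

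**Figure D5:**
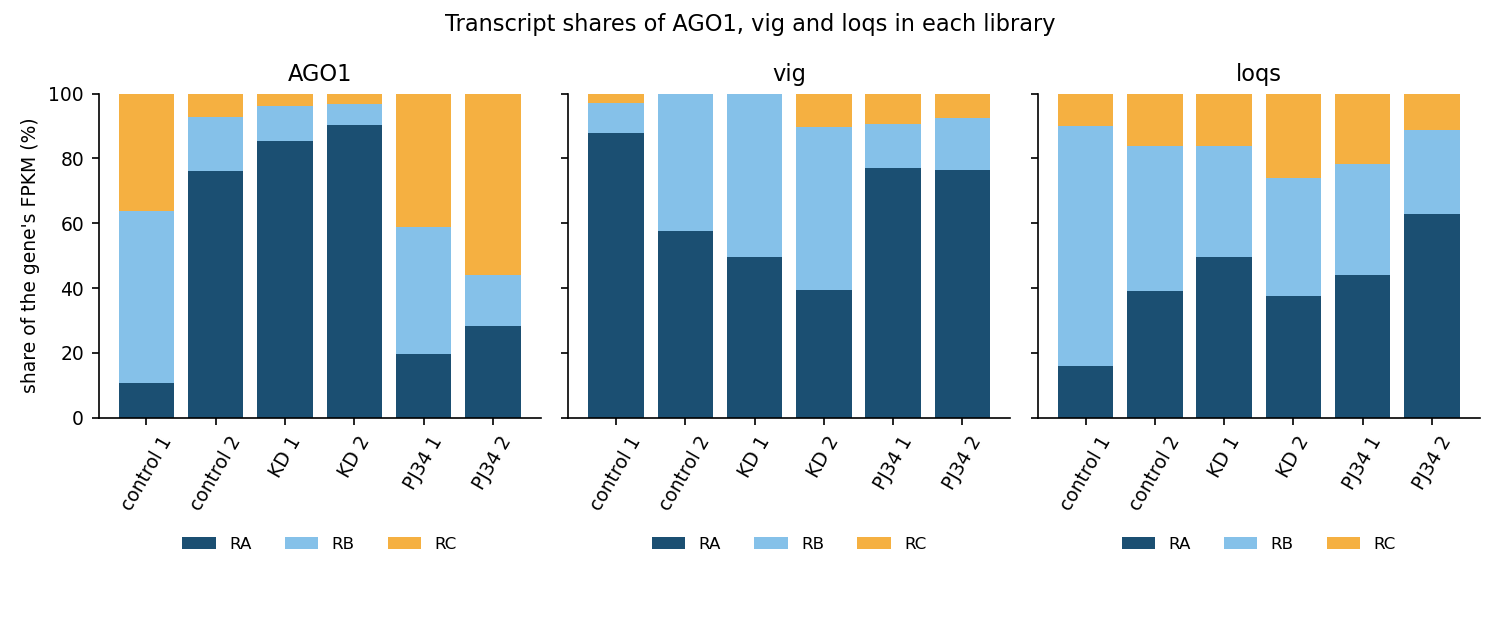
Share of each gene's FPKM (%) carried by its transcripts in AGO1, vig and loqs, 1 stacked bar per library, leaving out a vig transcript below 1% everywhere. The AGO1-RA share is 10.8% to 28.4% in control library 1 and the PJ34 libraries and 76.3% to 90.4% in control library 2 and the PARP1 KD libraries.

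Lists of related genes placed the set among its neighbours, namely small RNA cofactors, chaperones that load RISC, effectors of miRNA silencing, genes of the PIWI-interacting RNA (piRNA) route and antiviral genes. Of 78 listed genes 68 were tested. In PARP1 KD against control, 0 of the 68 passed with limma and 4 reached an unadjusted p up to 0.05, beside the 0% and 2.86% of all genes. The median differences were -0.53 over 15 cofactors, -0.42 over 6 chaperones, -0.80 over 13 effectors, -0.33 over 22 piRNA genes and -0.47 over 12 antiviral genes, beside -0.28 over all genes. Of the piRNA genes piwi, vas, qin and 4 others fell below the expression minimum and were not tested. By Cuffdiff at a p of at most 0.05, the study lists some of the genes named below as changed. It lists Nazo as higher and bel, Hsc70-4, Patr-1, tud and pst as lower in PARP1 KD. Under PARylation inhibition it lists AGO3 and moon as higher and Hsc70-4 as lower.

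Among cofactors the extremes in PARP1 KD against control were Cbp20, a subunit of the nuclear cap-binding complex, with a log2 difference of 0.55 (SE 0.45), and the RNA helicase gene bel at -1.57 (SE 0.90). Among chaperones they were the Hsp90 cochaperone gene Cdc37 at 0.37 (SE 0.82) and Hsc70-4, a constitutive Hsp70-type chaperone that helps load Argonaute, at -0.54 (SE 0.69). Hsc70-4 was at 1817 and 1134 FPKM in the controls, 1068 and 909 in PARP1 KD and 803 and 145 in PJ34. All had a limma adjusted p of 0.9996.

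In PARP1 KD against control, the lowest difference of the lists was that of an effector of miRNA silencing. DCP2, the decapping enzyme that removes the mRNA cap, was at 27.9 and 7.19 FPKM in the controls, 1.69 and 1.48 in PARP1 KD and 12.8 and 1.19 in PJ34. PARP1 KD lay below both controls but not below PJ34 library 2. The log2 difference from control was -2.58 (SE 0.93, unadjusted p = 0.0189, limma adjusted p = 0.9996), and DCP2 passed in 3 of 15 alternatives. Patr-1, a decapping activator chosen after its values were seen, was at 23.7 and 9.97 FPKM in the controls and 4.802 and 2.48 in PARP1 KD (log2 difference -1.87, SE 0.78, limma adjusted p = 0.9996). In PJ34 it was at 11.5 and 3.03 FPKM, with overlap of PARP1 KD and PJ34. The highest effector, the CCR4-NOT subunit gene Rcd-1, had a difference of 0.11 (SE 0.64).

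Against PJ34, 1 of the 68 list genes passed, beside the 2.57% of all genes, and 11 reached an unadjusted p up to 0.05, beside the 23.7%. For PJ34 against control 0 passed with limma and 20 reached that p, beside 0.643% and 31.1%. The 1 call was in the piRNA list. AGO3, an Argonaute of the piRNA amplification loop in the fly germline, was at 1.08 and 4.16 FPKM in the controls, 2.1 and 1.26 in PARP1 KD and 22.6 and 27.3 in PJ34. The PJ34 libraries lay far above the other 4, and PARP1 KD was lower than PJ34 by a log2 difference of -3.29 (SE 0.67, limma adjusted p = 0.0385), a call kept in 10 of 15 alternatives. PJ34 against control gave 2.98 (SE 0.67, limma adjusted p = 0.0836), and PARP1 KD against control -0.31 (SE 0.67, limma adjusted p = 0.9996). The extremes against control in the list were moon at 0.03 (SE 0.48) and tud, a Tudor-domain scaffold gene, at -1.69 (SE 0.90).

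Antiviral genes were included since viral dsRNA enters the same siRNA route. Nazo, an antiviral gene downstream of Sting, was at 104 and 82.0 FPKM in the controls, 201 and 177 in PARP1 KD and 61.4 and 105 in PJ34. Its knockdown values lay above the other 4, but the log2 difference of 1.03 (SE 0.44, unadjusted p = 0.0427, limma adjusted p = 0.9996) did not pass. pst, a gene of resistance to C virus, was at 138 and 98.1 FPKM in the controls, 55.0 and 39.6 in PARP1 KD and 45.2 and 34.1 in PJ34, with a difference of -1.30 (SE 0.47, unadjusted p = 0.0187, limma adjusted p = 0.9996). Vago, an antiviral gene known to need Dicer-2 for its induction and named here after its values were seen, was at 2.46 and 14.8 FPKM in the controls, 4.57 and 6.12 in PARP1 KD and 8.37 and 8.31 in PJ34, with the knockdown between the controls.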

How the data were processed

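Per the labels and the study's methods, the authors sequenced paired-end libraries, aligned reads to dm3 with TopHat2 2.0.10 and Bowtie2 2.1.0.0, and estimated transcript FPKM with Cufflinks 2.1.1 and Cuffdiff, guided by FlyBase genes. The deposited FPKM were summed per CG number and 13604 of 14012 numbers were matched in the RefSeq gene table (all 10 members). Lengths are median transcript lengths of the Ensembl BDGP6 annotation, and coordinates are those of the table.

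Genes averaging 1 FPKM or more were tested on log2(FPKM + 1), which understates changes of low genes, with limma 3.58.1 (R 4.3.3): 6 libraries, group means, intensity trend, Benjamini-Hochberg adjustment over 7308 genes. The length correction subtracted, in each library, a lowess curve (span 0.3) of the deviations from the gene means on log length (7248 genes). Other steps used Python 3.11.15, numpy 2.4.6, pandas 2.3.3 and matplotlib 3.10.9. P-values measure the spread between libraries of a group, which includes dose. This spread is a single value per gene pooled over all 3 groups. The PJ34 libraries thus enter each SE, interval and p of PARP1 KD against control. FPKM are not counts and no count test was made. Fragment numbers were estimated from steps of low values, 81.3% to 85.8% of which lay within 0.15 of a whole step.

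Members and lists were chosen with earlier results of these data known. Of each list, genes past the threshold and the largest and smallest difference of PARP1 KD from control were named. Alternatives were pseudocounts of 0.1 and 5, other filters and scalings, transcript rows, only the 4 libraries of a comparison, no trend and leaving out each library. Srg2 was not matched and the marker nos was not used.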

Additional observations from a re-analysis of the deposited data

How the results depend on the processing

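Against control, no alternative moved the count of 0 members past the threshold for PARP1 KD, nor the members' median beyond the replicate spread (SD 0.73), although that median ranged from -1.14 to -0.24 when a library was left out. Signs of small differences were less stable. Relative to control, PARP1 KD changed sign for r2d2 (0.00035 with median centring), drosha (0.061 with quantile normalization, 0.030 with median centring, 0.27 with length correction), pasha (0.018 with length correction, 0.16 without control library 1, lowest -1.05 when a library was left out), Dcr-1 (0.028, 0.00050 and 0.30 in the 3 scalings, 0.38 without control library 1, lowest -1.17 when a library was left out) and loqs (0.12 for its most abundant transcript row). Relative to PJ34, the signs changed for AGO2 (-0.19 without PJ34 library 2, highest 2.31 when a library was left out), AGO1 (-0.34, -0.41 and -0.38 in the 3 scalings, -1.04 without PJ34 library 2 and up to 1.72 without library 1, -0.83 by transcript row) and vig (-0.14, -0.21, -0.31, -0.66 and up to 1.74, and -0.22 in the same order). For PJ34 against control they changed for drosha (0.14 with length correction) and loqs (-0.050 without control library 1, 0.38 without control library 2, -0.015 without PJ34 library 1). The cause was not tested.

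Members past the threshold in PARP1 KD against PJ34 were 1 with length correction, 1 at an unadjusted p of at most 0.05 and between 0 and 8 when a library was left out. In PJ34 against control they were 5 at an unadjusted p of at most 0.05 and between 0 and 8 when a library was left out, with 8 without PJ34 library 1 and 1 without control library 2. Their median moved in PARP1 KD against PJ34 to 0.24 with median centring and 0.19 with length correction, and to between 0.00041 and 1.75 when a library was left out. In PJ34 against control it moved to -0.72, -0.61 and -0.38 in the 3 scalings. When a library was left out it moved to between -2.56 and -0.66. Without PJ34 library 1 it was -2.56, beside -1.69 for all genes tested, so the fall was not limited to the members. Without control library 2 it was -2.31, beside -1.26 for all genes tested. Both fits leave 1 library in a group, so their counts of members past the threshold are not a result about the set. The number of members with PARP1 KD beyond all other libraries became 0 with median centring. It stayed at 1 with quantile normalization and length correction, but there the member was drosha and Dcr-1 and lay higher, in place of loqs lower. On the FPKM + 1 scale, the difference of PARP1 KD from control in the log2 ratio of AGO2 to AGO1 (0.49) was 0.60 and 0.18 with pseudocounts of 0.1 and 5, 0.30 with quantile normalization and 0.42 with length correction, and the same difference for r2d2 to loqs (0.09) was -0.014 with a pseudocount of 5 and -0.11 with length correction. The remaining comparisons of members with alternatives kept their direction and side of the threshold in 458 cases, and 24 passed it only in the alternative.

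The number of genes past the threshold over all genes was 188 for PARP1 KD against PJ34 and 1370 with length correction, 47 and 218 for PJ34 against control, and 0 in both for PARP1 KD against control, where leaving out 1 library gave up to 72. A lone library is then assumed to vary like the other groups. The minimum of 5 FPKM left Dcr-1 out. No paired analysis was possible because the treated samples carry no distinct replicate numbers in the labels and their columns carry no dose. Depth limits Dcr-1, drosha and pasha most in PJ34 library 2, where each rests on about 47 to 105 fragments.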
